A study of Caenorhabditis elegans with 18 samples.

Results

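The genes described here handle fatty acids in Caenorhabditis elegans: they release them from stored lipid, bind them, activate them, lengthen them and begin their oxidation. They were chosen by name, as every protein-coding row whose gene name starts with acs, acdh, acox, elo, lipl or lbp followed by a number. This gave 67 of 19642 protein-coding rows, in 6 families: 21 acs, 13 acdh, 7 acox, 9 elo, 8 lipl and 9 lbp genes. The rule itself uses names and no measured value, but it was set with earlier results of these data known. The names, as given in the table, match RefSeq symbols for all members but acs-9, whose row carries the RefSeq symbol pkal-1.

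Fatty acids enter metabolism when a lipase frees them from triglyceride or another lipid. Small lipid-binding proteins then carry them through the watery cell or the body fluid. An acyl-CoA synthetase joins the acid to coenzyme A, and this activated form can be built into lipids, lengthened by an elongase or burned. Burning proceeds by beta-oxidation, whose first step is run by acyl-CoA dehydrogenases in mitochondria and by acyl-CoA oxidases in peroxisomes. In worms the intestine is the main site of fat storage, and the peroxisomal route also trims the side chains of ascarosides, the worm's pheromones.

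The study measured ribosome footprints, short pieces of mRNA left after nuclease has removed everything outside the ribosome, in whole worms at 20 °C and 45 hours after larvae were put on food. Its labels give 18 samples, 3 each of wild type, of an alg-1 null and of 4 alg-1 alleles (F180del, G199S, V254I and H751L). The gene alg-1 encodes a microRNA Argonaute, and the 4 alleles are modelled on human AGO1 changes found in neurodevelopmental disorders. Only wild-type columns could be tied to the labels, through the strain name N2, so the values below are those of 3 wild-type libraries, called A, B and C, and no genotype was compared with another. Wild type carried no added allele or agent beyond the shared growth on E. coli HB101. The labels do not say whether each library is its own culture, and the SDs below may therefore be technical.

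The libraries held 9121493, 10273375 and 2759428 counts in A, B and C. Levels are given as CPM, a gene's counts divided by its library's total and multiplied by 1000000, with no division by gene length. A value in CPM therefore says how many reads a gene held, and values of different genes do not rank the density of ribosomes on them. A count of 0 allows up to 3 counts, which equals 0.329, 0.292 and 1.09 CPM in A, B and C, with counting error alone considered. In footprint reads of whole animals, fewer cells of a type, less mRNA per cell and fewer ribosomes per mRNA cannot be told apart. Of the marker lists for whole-animal tissues, those for body wall muscle, hypodermis, germline, sperm, neurons and pharynx were detected in full. Each of their genes reached 1 CPM in all 3 libraries. Of 9 listed intestine markers, opt-2 had no row of that name, and 7 of the other 8 were detected, with elt-7 the exception.

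Together the 67 genes held 0.877% ± 0.0482 of all counts (SD, n = 3). Of them, 64 reached 1 CPM in every library, or 95.5%, against a background of 58.9% of protein-coding rows. The median member stood at 56.8 CPM, against 3.58 CPM over all protein-coding rows. Among detected genes only, the medians were 75.8 CPM for members and 16.5 CPM for protein-coding genes. These are medians of read numbers, which also follow gene length. With 10 counts or more asked for in every library, 60 members and 9785 protein-coding genes were left. Of these, 24 members and 1723 genes held a mean of 100 CPM or more. A mean under 10 CPM was held by 11 of the 67 members, and the share of all genes under it is not given here.

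**Figure D1:**
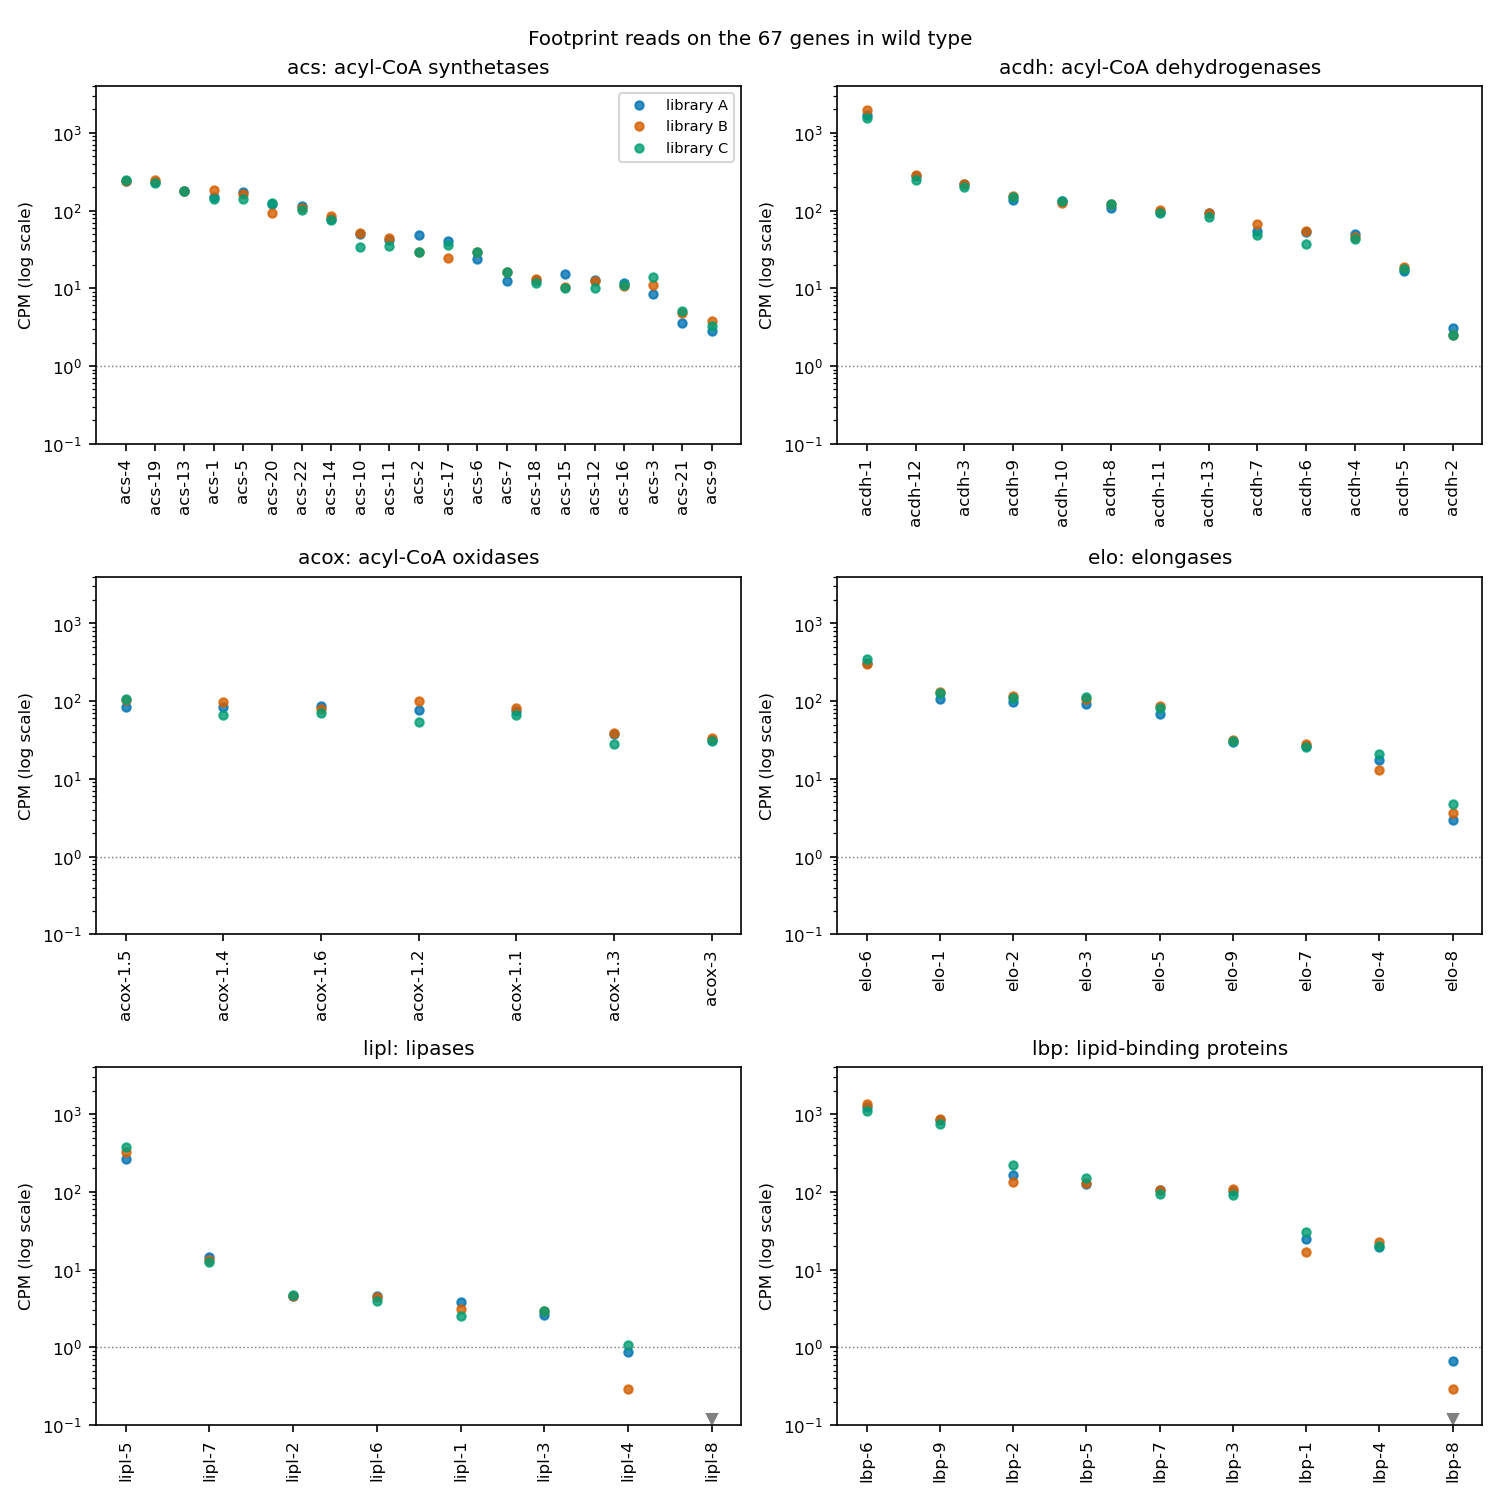
Level of each of the 67 genes in wild type, in CPM on a log scale, with 1 point per library and 1 panel per family, genes ordered by mean. Grey triangles at the lower edge mark genes with a count of 0 in at least 1 library, and the dotted line marks 1 CPM. Most genes have points that lie close together, and lbp-8, lipl-4 and lipl-8 have points below the line, lipl-4 in A and B only.

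The reads were spread unevenly over the families. The 13 acdh genes held 2987 ± 270 CPM (SD, n = 3), the 9 lbp genes 2605 ± 150 CPM and the 21 acs genes 1538 ± 52.2 CPM. The elo family held 816 ± 55.6 CPM, acox 477 ± 57.6 CPM and lipl 351 ± 55.8 CPM. Much of this came from a few genes. acdh-1, lbp-6 and lbp-9 held 43.3% of the reads of the 67 genes, and acdh-1 alone held 20%. Within families the highest member held 91.7% of reads in lipl, 58.7% in acdh, 47% in lbp and 39.4% in elo, but only 20.5% in acox and 15.7% in acs.

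**Figure D2:**
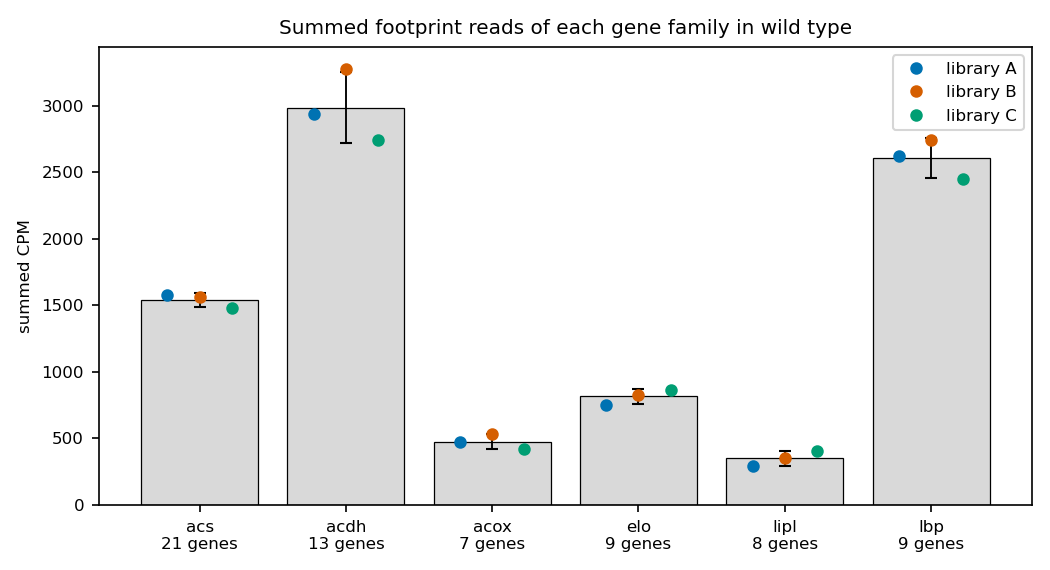
Summed CPM of each family in wild type. Bars give the mean of 3 libraries, error bars the SD and points each library. In acdh, acox and lbp the order of libraries is C, A, B from low to high, in elo and lipl it is A, B, C, and in acs it is C, B, A.

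The lipases, which free fatty acids from lipid, were led by lipl-5, a lysosomal lipase known to respond to fasting. lipl-5 stood at 261, 328 and 375 CPM in A, B and C, a mean of 322 ± 57.3 CPM (SD, n = 3). The libraries differed well beyond counting error, since the coefficient of variation was 17.8% where counting alone gives 2.43%. The next lipase, lipl-7, stood at 13.5 ± 0.841 CPM. lipl-2 and lipl-6 stood at 4.63 ± 0.0716 and 4.32 ± 0.313 CPM. lipl-1 and lipl-3 are known to be induced by fasting through the transcription factor HLH-30. Their counts were 35, 32 and 7 for lipl-1 and 24, 30 and 8 for lipl-3, or 3.16 ± 0.651 and 2.82 ± 0.161 CPM. lipl-4, a lysosomal acid lipase that extends life span when overexpressed in the intestine, had 8, 3 and 3 counts. In B and C it was thus no higher than the limit that a count of 0 allows. lipl-8 was listed at 0 counts in all 3 libraries, which allows up to 1.09 CPM in the shallowest, C.

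Lipid-binding proteins of the fatty acid-binding protein family held many reads through 2 members. lbp-6 stood at 1238, 1345 and 1088 CPM in A, B and C, and lbp-9 at 841, 876 and 751.2 CPM. For both genes B was highest and C lowest, and the means were 1224 ± 129 and 823 ± 64.3 CPM (SD, n = 3). lbp-5, which acts with the nuclear receptor NHR-49 in fat metabolism, stood at 136 ± 11.3 CPM. lbp-7 stood at 103 ± 6.74 CPM and lbp-4 at 21 ± 1.77 CPM. lbp-8, the lysosomal lipid chaperone that acts downstream of lipl-4, was almost without reads. Its counts were 6, 3 and 0 over the libraries, so both partners of that pathway lay at or near the limit, and neither reached 1 CPM in every library.

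The genes lbp-1, lbp-2 and lbp-3 encode proteins with a signal for secretion, and they lie next to one another in RefSeq's gene order as lbp-3, lbp-1, lbp-2. lbp-2 stood at 164, 133 and 222 CPM in A, B and C, and lbp-1 at 24.8, 17.0 and 30.4 CPM. Both were lowest in B and highest in C. lbp-3 stood at 103, 110 and 90.2 CPM, the opposite order. The ratio of lbp-1 to lbp-2 reads was 0.151, 0.128 and 0.137 over the libraries, or 0.139 ± 0.0114 (SD, n = 3), whereas that of lbp-3 to lbp-1 was 4.17, 6.47 and 2.96.

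The acs genes, named for acyl-CoA synthetases, which activate fatty acids with coenzyme A, were all detected. They ran from 3.3 CPM for acs-9, the row with the RefSeq symbol pkal-1, to 242 CPM for acs-4. acs-4 stood at 243, 239.7 and 244 CPM in A, B and C. Its coefficient of variation, 0.905%, was below the 2.8% that counting alone gives on average. acs-19, an acetyl-CoA synthetase, stood at 236, 249 and 226 CPM. The order of these 2 genes by reads differed between libraries, with acs-19 above acs-4 in B only, so they did not differ beyond their spread. acs-13 stood at 178 ± 1.04 CPM and acs-5 at 158 ± 16.1 CPM.

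acs-1, which is needed for the use of branched-chain fatty acids made in the worm, stood at 150.1, 183 and 142 CPM in A, B and C, or 158 ± 21.5 CPM. The FATP-type genes acs-20 and acs-22, whose products take part in forming the cuticle's barrier, stood at 113 ± 16.7 and 108 ± 5.16 CPM. acs-20 was lower in B, at 94.1 CPM, than in A and C, at 121 and 125 CPM, while acs-22 was between 103 and 113 CPM in all. acs-2, a synthetase induced by starvation through NHR-49, stood at 47.9, 29.0 and 29.4 CPM, so library A held more of its reads than B and C. acs-3, which acts with the nuclear receptor NHR-25 in lipid uptake, stood at 8.33, 11 and 14.1 CPM. acs-7, linked to ascaroside synthesis, stood at 14.8 ± 2.21 CPM. acs-14, acs-10 and acs-11 stood at 79.2 ± 4.73, 45.4 ± 9.53 and 40.5 ± 4.73 CPM. acs-17 stood at 40.1, 24.3 and 36.2 CPM and was lowest in B, whereas acs-6 stood at 23.5, 29.7 and 29.0 CPM and was lowest in A. acs-15 held 15.3 CPM in A against 10.3 and 10.1 CPM in B and C, so A was highest, as for acs-2. acs-18, acs-12 and acs-16 stood at 12.5 ± 0.881, 11.8 ± 1.43 and 11.2 ± 0.579 CPM, and acs-21 at 4.49 ± 0.768 CPM.

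Elongases, which add carbons to an activated acid, were led in reads by elo-6. With elo-5 it makes the branched-chain fatty acids that worms need for growth. elo-6 stood at 312, 305 and 347 CPM in A, B and C and elo-5 at 68.7, 87.7 and 82.6 CPM. The first was highest in C and the second lowest in A, and their means were 321 ± 22.5 and 79.7 ± 9.82 CPM (SD, n = 3). elo-1 and elo-2, which act in the synthesis of polyunsaturated fatty acids and in the lengthening of palmitate, stood at 123 ± 12.7 and 108 ± 10.5 CPM. elo-3 stood at 105 ± 11.9 CPM, within the spread of elo-2. elo-9, elo-7 and elo-4 stood at 31.1 ± 0.883, 26.8 ± 1.36 and 17.3 ± 4.01 CPM. elo-8 was lowest in the family, with 27, 37 and 13 counts, or 3.76 ± 0.886 CPM. elo-1 and elo-7 are neighbours in the genome, and the ratio of their reads was 4.58 ± 0.433.

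Among acyl-CoA dehydrogenases, acdh-1 held the most reads of all 67 genes. It opens the propionate shunt, the route by which worms break down propionate when vitamin B12 is scarce, and its promoter is widely used as a diet sensor. acdh-1 stood at 1699, 1989 and 1571 CPM in A, B and C, from 15496, 20433 and 4334 counts. Its mean was 1753 ± 214 CPM (SD, n = 3), and its coefficient of variation of 12.2% stood against 1.04% from counting alone. Its near namesake acdh-2 had 28, 26 and 7 counts, or 2.71 ± 0.309 CPM, the fewest of the family.

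The other dehydrogenases stood between these. acdh-12 held 270.3 ± 21.5 CPM and acdh-3 213 ± 10.7 CPM. acdh-9, acdh-10 and acdh-8 stood at 147 ± 8.14, 131 ± 4.26 and 116 ± 7.86 CPM. acdh-11, which limits fatty acid desaturation when worms are warm by binding fatty acids of middle length, stood at 95.1, 103 and 92.4 CPM, so the libraries lay close together. acdh-13 stood at 89.3 ± 6.43 CPM, acdh-4 at 45.8 ± 3.59 CPM and acdh-5 at 17.6 ± 1.02 CPM. acdh-7 and acdh-6 were less steady, with 55.03, 66.7 and 48.6 CPM and 52.3, 54.5 and 37.0 CPM in A, B and C, both lowest in C. The 9 highest acdh genes had the same order by reads in every library. acdh-10 and acdh-7 are neighbours in RefSeq's gene order, with reads in a ratio of 2.42, 1.89 and 2.75.

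Acyl-CoA oxidases run the first step of peroxisomal beta-oxidation and set the side-chain length of ascarosides. The 5 highest, acox-1.5, acox-1.4, acox-1.6, acox-1.2 and acox-1.1, stood at means of 97.8 to 74.7 CPM, and acox-1.6 held the most reads in A while acox-1.5 did in B and C. Their order by reads was therefore not settled by these libraries. acox-1.3 and acox-3 were lower in every library, at 34.8 ± 5.7 and 31.9 ± 1.26 CPM (SD, n = 3).

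acox-1.1, acox-1.2, acox-1.3 and acox-1.4 follow one another in RefSeq's gene order. acox-1.2 varied most of the 60 compared members, with 76.2, 101 and 53.3 CPM in A, B and C and a coefficient of variation of 31.1%, against 4.97% from counting. The ratio of acox-1.1 to acox-1.2 reads was 0.993, 0.819 and 1.23, so it lay on both sides of 1. The ratio of acox-1.3 to acox-1.4 was steadier, 0.449, 0.396 and 0.424. How the authors counted reads that match several of these related genes is not stated in the labels or the table.

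The genes around these families were taken from a list of 62 genes of fatty acid synthesis, oxidation, storage, binding and control, all found in the table. Of these, 61 were detected, and together they held 15464 ± 565 CPM (SD, n = 3). The 10 with the most reads were hphd-1, far-2, fasn-1, far-1, ech-6, acaa-2, hach-1, art-1, pod-2 and kat-1. fasn-1, the fatty acid synthase, stood at 1603 ± 40.4 CPM and pod-2, the acetyl-CoA carboxylase that feeds it, at 518 ± 38.2 CPM. Of the elongases' partner reductases, art-1 stood at 549.99 ± 14.0 CPM.

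In mitochondrial oxidation, the thiolases acaa-2 and kat-1 stood at 662 ± 43.7 and 419 ± 22.7 CPM. Among carnitine palmitoyltransferases, which admit long acids to mitochondria, cpt-2 and cpt-1 stood at 152 ± 6.42 and 94.5 ± 9.22 CPM. cpt-3 was the only listed gene not detected, with 1, 0 and 1 counts. The peroxisomal steps that follow the acyl-CoA oxidases stood at 52.8 ± 10.8 CPM for maoc-1, 322 ± 28.2 CPM for dhs-28 and 209 ± 10.4 CPM for daf-22. The regulators nhr-49, mdt-15, sbp-1 and hlh-30, which control many genes of these families, stood at 45.3 ± 3.26, 76.6 ± 2.36, 19.2 ± 2.31 and 39.5 ± 4.77 CPM.

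Propionate can be broken down by the shunt that acdh-1 opens or by a route that depends on vitamin B12. All 5 shunt genes were detected, with hphd-1 at 2252, 2427 and 2245 CPM in A, B and C. By mean it was the highest of the wider list, though in C far-2 stood above it at 2394 CPM. ech-6, hach-1 and alh-8 stood at 682 ± 62.0, 573 ± 20.9 and 149 ± 10.4 CPM (SD, n = 3). Shunt genes summed to 5341, 5914 and 5138 CPM in A, B and C. All 4 genes of the B12-dependent route were detected too: pcca-1 at 272 ± 27 CPM, pccb-1 at 191 ± 11.7 CPM, mce-1 at 53 ± 4.68 CPM and mmcm-1 at 192 ± 10.5 CPM. They summed to 743, 653 and 729 CPM. The shunt sum was thus highest, and the other sum lowest, in library B, though mce-1 stood lowest in C, at 47.8 CPM. These sums are of read numbers, so they do not compare how heavily the routes were translated. The B values were also set against the mean of the other libraries in log2 CPM, with the median of all compared genes at 0. The shunt genes then had a median of 0.089 and the other genes one of -0.22. Both lay within the quartiles of all compared protein-coding genes in B, -0.23 and 0.20.

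**Figure D3:**
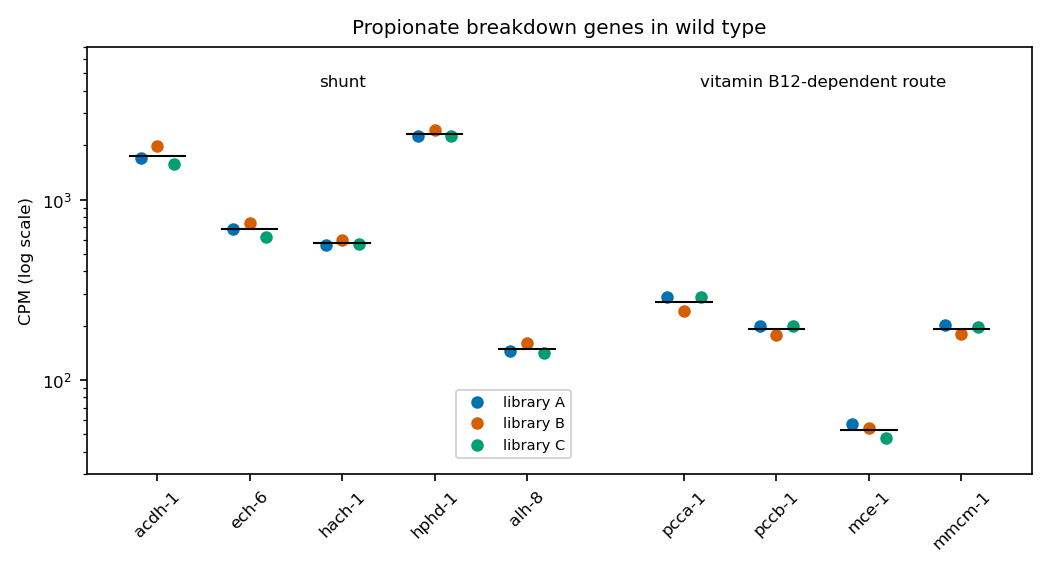
Level in CPM, on a log scale, of the 5 genes of the propionate shunt and the 4 genes of the vitamin B12-dependent route in wild type. Points are libraries and lines their mean. hphd-1 and acdh-1 hold the most reads, with means of 2308 and 1753 CPM, and mce-1 the fewest, 53 CPM.

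How steady the members were between wild-type libraries describes their spread in this genotype only, and that spread may be technical. A minimum of 10 counts per library left 60 of 67 members and removed acs-9, acdh-2, lipl-1, lipl-3, lipl-4, lipl-8 and lbp-8. The median coefficient of variation of the 60 was 10.2%, against 14% over 9785 protein-coding genes that passed the same filter. At 100 CPM or more, where counting error weighs less, it was 8.15% over 24 members and 10.3% over 1723 genes. In 28 members it was under 10%, and in 10 it was over 20%. For 29 of the 60 the spread was over 2 times that of counting alone, and for 15 it was at or below it. The shares of all compared genes past these limits are not given here, so these counts do not set the members apart.

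Each library was then set against the mean of the others on the log2 CPM scale, with the median of all compared protein-coding genes set to 0. The median over the 60 members was 0.011, 0.024 and -0.016 in A, B and C. Past 1.5-fold, 1 member was higher in A (background 2.44%), 1 in B (background 2.33%) and 4 in C (background 6.62%). In the other direction, 1 member was lower in A (background 2.57%), 4 in B (background 7.86%) and 1 in C (background 4.03%). These counts equal 1.67% or 6.67% of the members, near or below the background in each case. The 3 differences of a gene are not independent of one another.

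The members past 1.5-fold were few. acs-2 was higher in A at 0.70, and at 0.77 and 0.65 when set against B or C alone. acs-17, an acyl-CoA synthetase, was lower in B at -0.73, and at -0.67 and -0.76 when set against either of the others. These 2 alone stayed past 1.5-fold against both other libraries. lbp-1 and lbp-2 were lower in B, at -0.77 and -0.60, and higher in C, at 0.64 and 0.66. Set against A alone, lbp-2 in B was at -0.35 and lbp-1 at -0.58. elo-4 was lower in B at -0.64 and elo-8 higher in C at 0.60. For elo-8, with 27, 37 and 13 counts, the coefficient of variation of 23.6% was near the 22.5% that counting alone gives. acs-3 was lower in A at -0.59 and higher in C at 0.64, and acox-1.2 was higher in B at 0.59 and lower in C at -0.65.

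Some other genes were also lower in library B, where lbp-1, lbp-2, acs-17 and elo-4 were lower. The secreted-type fatty acid- and retinol-binding genes far-1 and far-2 were at -0.70 and -0.92 there. They were the only 2 of 58 compared genes of the wider list lower by over 1.5-fold in B (background 7.86%). The median of that list in B was -0.020. The 6 body wall muscle markers had a median of -0.44, with sums of 12067, 9367 and 13141 CPM in A, B and C. The 4 pharynx markers were also at -0.44, with sums of 348, 283 and 388 CPM. The 6 hypodermis markers were at -0.27, with sums of 711, 669 and 931 CPM. Of the hypodermis markers, elt-3 was at -0.029 in B, and nhr-25, with 18, 41 and 11 counts, went the other way at 0.43. None of these muscle, pharynx and hypodermis markers had a count of 0. The 5 germline markers were at 0.21, with sums of 1425, 1756 and 1339 CPM. Neuron markers were at -0.22, intestine markers at -0.07 and sperm markers at -0.014. The part of these shifts in the members' differences was not tested.

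By family, elongases showed the widest shift of medians. In A the 9 elo genes had a median of -0.24, with 8 of 9 below the median of all genes, and in C a median of 0.17, with 8 of 9 above it. Set against B alone A was at -0.20 with 7 of 9 below, and set against C alone it was at -0.30 with 9 of 9 below. C was at 0.30 with 9 of 9 above when set against A alone. Against B alone C was at only 0.060, with 7 of 9 above. In B the elo median was 0.0031. The 6 hypodermis markers had medians of -0.20, -0.27 and 0.46 in A, B and C. The elongation partners let-767, art-1 and hpo-8 had medians of -0.055, -0.34 and 0.38, with art-1 itself at 0.011 in C. Both of these sets were thus lowest in B, whereas elo was lowest in A. Intestine markers had medians of -0.066, -0.069 and 0.041. The part of these shifts in the elo values was not tested. The acox genes had medians of 0.032, 0.16 and -0.20 in A, B and C. Set against B alone, acox genes in A were at -0.089, and set against C alone at 0.24. In C they were at -0.24 against A alone, with 5 of 7 below, and at -0.24 against B alone, with 6 of 7 below. The acs, acdh, lbp and lipl families had medians between -0.07 and 0.052 in every library. For lipl the median covers only 4 genes, and lipl-5, which held 91.7% of that family's reads, was at -0.44, -0.013 and 0.43 in A, B and C. With 1 library on one side, these shifts have no replicate check.

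**Figure D4:**
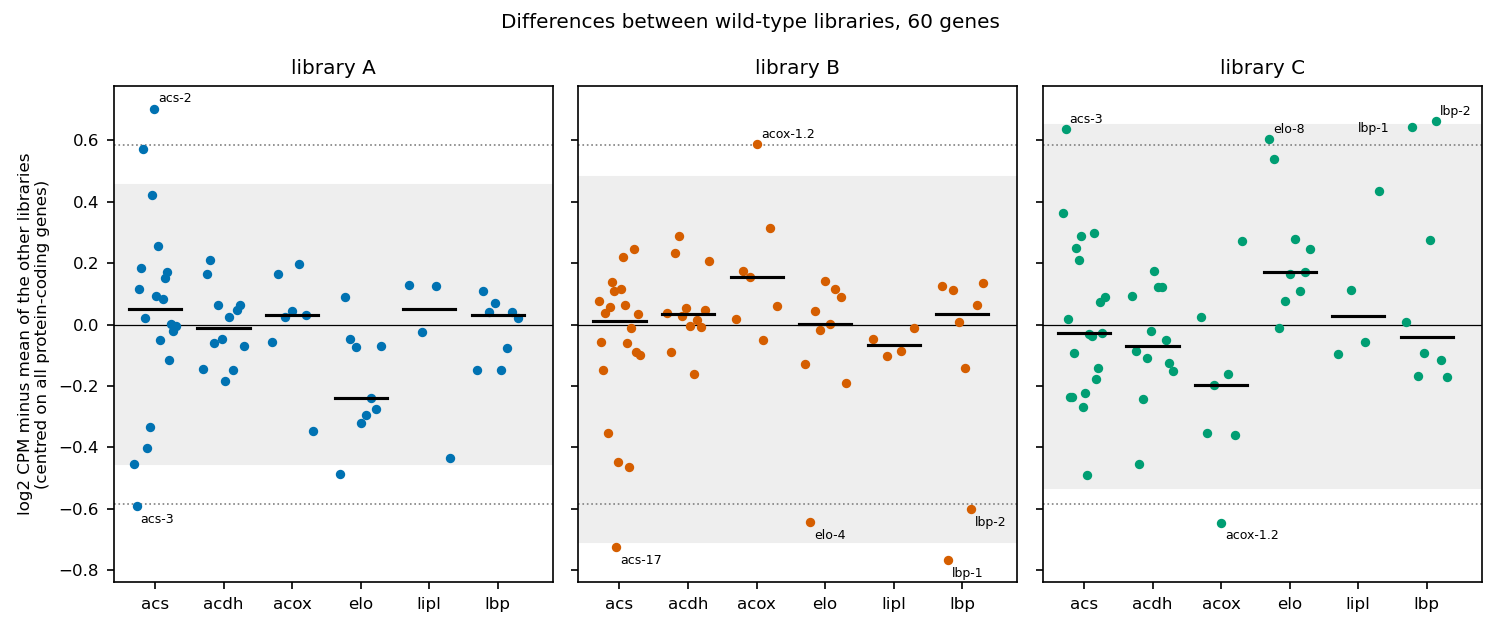
Difference of each wild-type library from the mean of the other libraries, in log2 CPM, for 60 genes by family, with genes ordered from fewest to most reads within a family. Black bars are family medians, the grey band spans the 5th to 95th percentile of all compared protein-coding genes, and dotted lines mark 1.5-fold. Most points lie within the band, and the elo bars sit at -0.24 in A and 0.17 in C.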

How the data were processed

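The deposited table holds read counts per gene as whole numbers, which the authors had not normalized. Per the submitters' processing notes, cutadapt 1.9 and Bowtie2 2.3.5.1 were used. Which counter, genome build and annotation were used, which footprint lengths were kept and how reads matching several genes were treated is not given in the sources used here. Per the labels' protocols, lysates were digested with RNase I and RNA near 30 nt was recovered from monosomes. Of 18 columns, 15 bear strain names found in no label and were left out, so the 9 edgeR comparisons planned between groups were not run.

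Counts were divided by library totals over all 46727 gene rows (CPM). Detection meant 1 CPM in every library. The spread from counting alone was computed from the mean rate and the totals. Library differences used protein-coding genes with a minimum of 10 counts per library. They were tested on simulated counts with known changes. Members, gene lists and alternatives were chosen with earlier results of these data known. Named genes were the 5 highest and the lowest of each family, members with a count of 0, members with near-equal counts and the 10 highest of the wider list. Other members were named after their values were seen. RefSeq (WBcel235) served for symbols and gene order only. No coding lengths or sequences were used. Python 3.11.15, numpy 2.4.6, pandas 2.3.3, matplotlib 3.10.9 and, for TMM factors, edgeR 4.0.16 in R 4.3.3 were used.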

Additional observations from a re-analysis of the deposited data

How the results depend on the processing

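No paired analysis was possible because only wild-type columns were used and their letters are no replicate numbers. The alternatives for comparisons between alleles, and levels per codon, were not run. Scaling by TMM moved none of 66 member levels and 7 totals by over 1 SD. Leaving the 20 most abundant genes out of the total, none of them a member, raised every value because the total shrank: acs to 1751, acdh to 3400, elo to 929, lbp to 2965, acox to 542 and all 67 genes to 9987 CPM, each over 1 SD, with 44 of 66 member levels. A mean of 3 libraries cannot shift by more than 1 SD when 1 is dropped, so those values say nothing about stability. The count of detected members stayed at 64 under every alternative that kept the 1 CPM rule. It was 60 where 10 counts or more were asked for in every library. The medians of library differences over the members lay close to 0 and changed sign easily: with 1 library left out, those of A lay between -0.022 and -0.0066, those of B between -0.0063 and 0.022, and those of C between 0.0063 and 0.0066, and thinning gave -0.011 in B. The per-member and per-family values with 1 library left out were added after seeing the data. Depth limits rare members most in C.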

Other observations

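One row with a matching name fell outside the choice of genes because the table types it as a pseudogene. The counts of acs-23 were 15, 17 and 4 over the libraries, or 1.58 ± 0.116 CPM (SD, n = 3).

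Of 1770 pairs among the 60 compared members, 6 had counts closer in every library than the SD of a random split of their reads. They were lbp-7 with lbp-3, acox-3 with elo-9, lipl-2 with lipl-6, and the pairs among acs-18, acs-12 and lipl-7. The counts of lbp-7 and lbp-3 differed by 32, 33 and 14, where the random split has an SD of 43.8, 47.3 and 22.6. Whether they share reads was not tested. In the wider list the catalase genes ctl-1 and ctl-2 differed by 30, 53 and 2 counts, where the random split has an SD of 63.9, 77 and 43.8. Both were at -0.51 or below in A and at 0.52 or above in C on the log2 scale.

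Both acyl-CoA-binding protein genes with many reads, acbp-1 and acbp-3, stood lowest in A, at 107 and 208 CPM, and highest in B, at 163 and 267 CPM. The carnitine palmitoyltransferase gene cpt-5 had 119, 109 and 17 counts, or 13.05, 10.6 and 6.16 CPM.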
